A study of Branchiostoma lanceolatum with 6 samples.

Results

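The genes described here were those most specific to the notochord in a single-cell RNA atlas of the Mediterranean amphioxus (*Branchiostoma lanceolatum*) at the neurula stage. UMIs (molecule tags that count each captured transcript once) were summed over all cells of a cell type and expressed per 10,000 UMIs of all genes, which is the level used throughout. A gene was a member when it had at least 50 UMIs in the notochord and a level over 2 times that of the highest of the 16 other cell types, and 2 gene IDs that met the rule were left out beforehand. This gave 101 genes of the 27073 in the table, and of the 2803 genes with at least 50 UMIs in the notochord 3.67% met the rule with those 2 included. Muscular somites, taken through the same rule, gave 121 genes. Because the levels chose the genes, the levels in the notochord and in the other types are a description, and no test was made on them.

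The atlas was built by MARS-seq, a plate-based method, from pooled wild-type embryos at 21 hpf (hours post-fertilization) kept at 19 °C, with no treatment given in the labels. It holds 14586 cells in 176 metacells, which are groups of cells with similar transcriptomes, and in 17 cell types named by the authors (endostyle here stands for endostyle with club-shaped gland). The 2 single-cell samples cannot be told apart by cell name, so all cells were 1 sample with no replicate, and the intervals given are 95% intervals that cover counting error only. The notochord comprised 409 cells (2.80% of the atlas) in metacells 16 to 19, with 878483 UMIs and a median of 1530 UMIs per cell, against a median of 1585 over all cells.

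The notochord is the rod of axial mesoderm that gives chordates their name. It stiffens the embryo along its length, is wrapped in a sheath of extracellular matrix that its own cells secrete, and signals to the neural tube above it. In chordates its formation depends on T-box transcription factors of the Brachyury family and on forkhead factors of the Foxa family, while Sox9-type factors drive matrix genes in the vertebrate notochord and cartilage.

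The label was compared with 6 notochord markers, of which 4 were highest in the notochord of all types (15.7% of all 2803 genes) and 5 were over 2 times higher there than in all other cells pooled (25.9%). *Foxaa* BLAG04001275 and *Crtac1a* are members, so the rule fixed their place in both counts. *Crtac1a* was also taken from labels in the study's own figures and is not independent of these cells. The paper names *Foxaa*, *Chordin* and *Netrin* among floor plate markers as well, so both counts are a description. *Brachyury2* was higher in the tailbud and *Netrin* in neural types. In notochord cells *Foxaa* BLAG04001275 was at 6.14, *Foxaa* BLAG04001273 at 6.12, *Brachyury2* at 6.96, *Crtac1a* at 4.37, *Chordin* at 3.16 and *Netrin* at 1.97 UMIs per 10,000. Of the 4 muscular somite markers, *Mrf1*, a myogenic factor, had 0 UMIs in the notochord, which with a limit of 3 counts leaves a level of up to 0.0341. *Mef2* was at 2.88, *MLC-alk* at 0.637 and *Titin-like* at 0.364, against 20.9, 27.5 and 19.96 in muscular somites. The neural markers *Elav*, *Soxb1c* and *Tcf15-like* were at 0.433, 0.114 and 0.137. The 4 epidermal markers differed between the notochord metacells. Their summed level was 32.8 (27.9 to 38.1) in metacell 17, 15.4 in metacell 18, 12.2 in metacell 19 and 8.13 in metacell 16. It was 301 in the anterior and 339 in the posterior epidermis.

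Levels of the 101 genes in the notochord ranged over 0.569 to 56.5 UMIs per 10,000, with a median of 2.13, and their ratio to the next highest type had a median of 3.21. For 47 genes the ratio was under 3, for 28 it was over 5 and for 17 over 10. The lower bound of the ratio's interval was over 2 for 60 genes and over 1 for 97, so 4 genes were not separated from their next type beyond counting error. For 26 genes that next type rested on fewer than 10 UMIs. Of all UMIs of a gene in the atlas, the notochord held a median of 30.4%, and it held more than 50% for 22 genes.

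**Figure D1:**
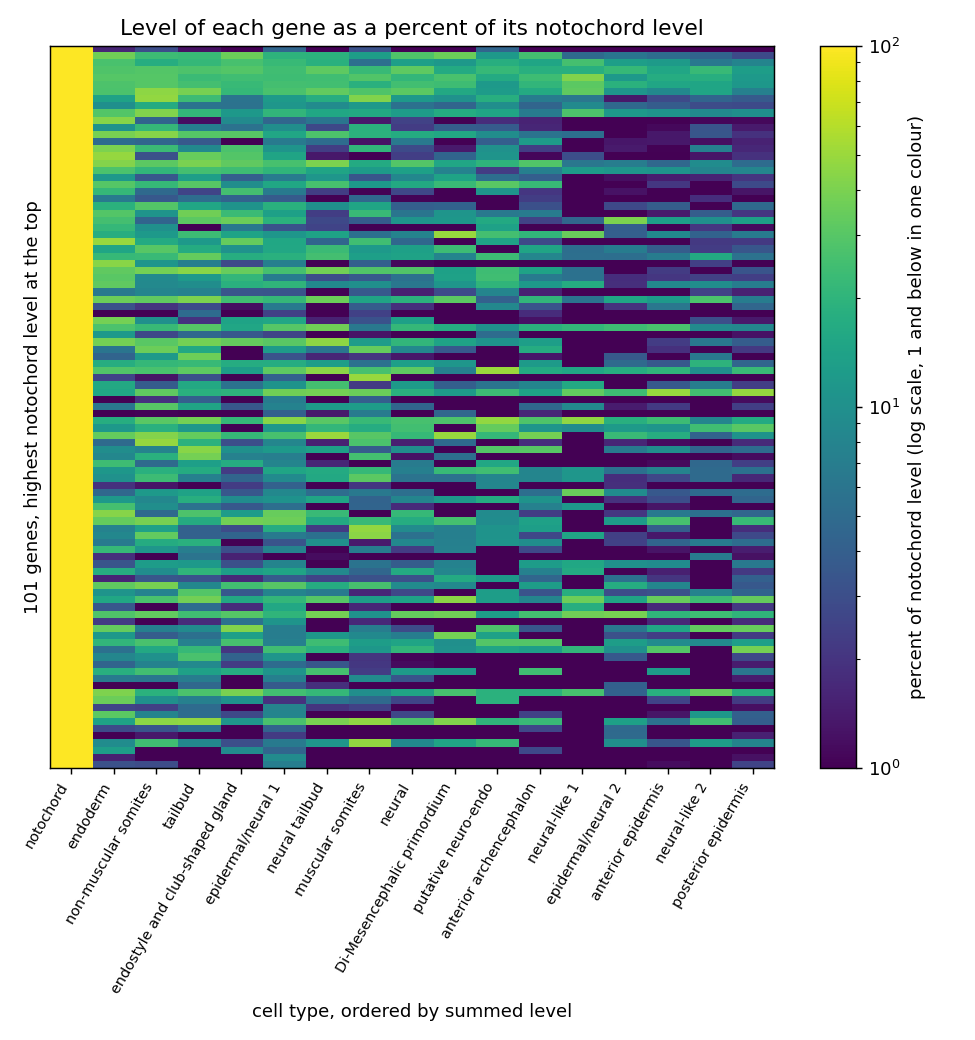
Level of each of the 101 genes (rows, highest notochord level at the top) in the 17 cell types (columns), as a percent of the gene's level in the notochord on a log colour scale. The notochord is at 100 by construction, the columns run from the highest summed level (notochord, 401) to the lowest (posterior epidermis, 19.7), and the darkest colour marks 1% or less.

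Only 9 of the 101 genes carry a name in the study. The other 92 have an ID only, and none of the 101 could be matched to the RefSeq gene table used here, so no sequence, position or function is given for them. The named genes include 5 transcription factors, 2 matrix or surface proteins and an enzyme of the endoplasmic reticulum (ER), and are described in that order.

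*Foxaa* BLAG04001275, the forkhead factor, was at 6.14 (5.63 to 6.68) in the notochord, against 2.95 (2.73 to 3.18) in the endoderm, a ratio of 2.08 (1.86 to 2.34). The tailbud followed at 2.12 and the endostyle cell type at 1.79, and epidermal/neural 1 was at 0.910. In the notochord its level was 5.07 in metacell 16, 3.37 in 17, 9.57 in 18 and 7.53 in 19. The other ID labelled *Foxaa*, BLAG04001273, had nearly the same notochord level but was no member, because its endostyle level was 5.34 (ratio 1.15).

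*T* (BLAG01001009), a Brachyury-family T-box gene, was at 1.70 (1.43 to 1.99) in the notochord, against 0.648 (0.456 to 0.893) in the tailbud, 0.426 in muscular somites and 0.317 in non-muscular somites. It was at 1.41 in metacell 16, 1.19 in 17, 2.08 in 18 and 2.51 in 19. *Brachyury2* (BLAG01001008), the relative in which the tailbud stood above the notochord, was at 6.96 (6.41 to 7.53) in the notochord and 9.92 (9.12 to 10.8) in the tailbud. Of these T-box genes the one at the lower level was the one that met the rule.

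*SOX9* (BLAG09000361), a Sox-family factor, was at 5.04 (4.58 to 5.53) in the notochord. Its next type was the Di-Mesencephalic primordium at 0.734, which rested on 8 UMIs, and the ratio was 6.87 (3.46 to 16.01). The tailbud was at 0.665, the endoderm at 0.586, the neural tailbud at 0.565 and neural cells at 0.425. Across the notochord it was at 5.90 in metacell 16, 1.19 in 17, 2.22 in 18 and 6.01 in 19.

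*TWIST2* (BLAG10000675), a bHLH factor of a family known from mesoderm, was at 1.82 (1.55 to 2.13) in the notochord, against 0.875 (0.761 to 1.002) in non-muscular somites and 0.494 in muscular somites. Its levels in metacells 16 to 19 were 1.56, 2.18, 2.08 and 2.38, so it was not highest in metacell 16. They rested on 83, 11, 30 and 36 UMIs. *ERF* (BLAG90000320), an Ets-family gene, was at 3.73 (3.34 to 4.16) in the notochord and 1.84 in the Di-Mesencephalic primordium, where it had 20 UMIs. Neural-like 1 cells came next for *ERF* at 1.29 and putative neuro-endo cells at 0.935, each on 7 UMIs, and the tailbud at 0.875. BLAG11000703, which the study lists among transcription factors under the label PANX2, was at 1.97 in the notochord and 0.668 in the putative neuro-endo cells, on 5 UMIs, and no role is given for it.

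*Thsd7* (BLAG18000086), which encodes a protein with thrombospondin type repeats, was at 7.14 (6.59 to 7.72) in the notochord, against 1.54 (1.39 to 1.70) in non-muscular somites, 1.36 in muscular somites and 0.750 in the endoderm. Its ratio of 4.64 (4.07 to 5.29) was well clear of the threshold. Within the notochord it was at 9.37 in metacell 16, 1.39 in 17, 4.79 in 18 and 3.43 in 19. The non-muscular somite metacell 26 was at 4.02, above metacells 17 and 19. The other gene labelled *Thsd7*, BLAG12000338, was at 0.296 in the notochord.

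*Crtac1a* (BLAG10000145), whose vertebrate relative is a cartilage matrix protein, had the largest ratio of the named genes, at 15.4 (11.8 to 20.4). It was at 4.37 (3.94 to 4.83) in the notochord, against 0.284 (0.219 to 0.363) in the endoderm, 0.228 in the tailbud and 0.204 in muscular somites. In metacells 16 to 19 its levels were 5.90, 0.198, 2.91 and 1.78, and the value in metacell 17 was 1 UMI.

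*FKBP14* (BLAG09000575), whose vertebrate relative is an ER enzyme that assists collagen folding, was at 7.01 (6.47 to 7.59) in the notochord, against 3.03 (2.81 to 3.26) in non-muscular somites, 2.73 in the endoderm, 2.13 in the endostyle and 2.08 in the tailbud. It was at 6.72 in metacell 16, 3.57 in 17, 9.02 in 18 and 7.27 in 19.

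**Figure D2:**
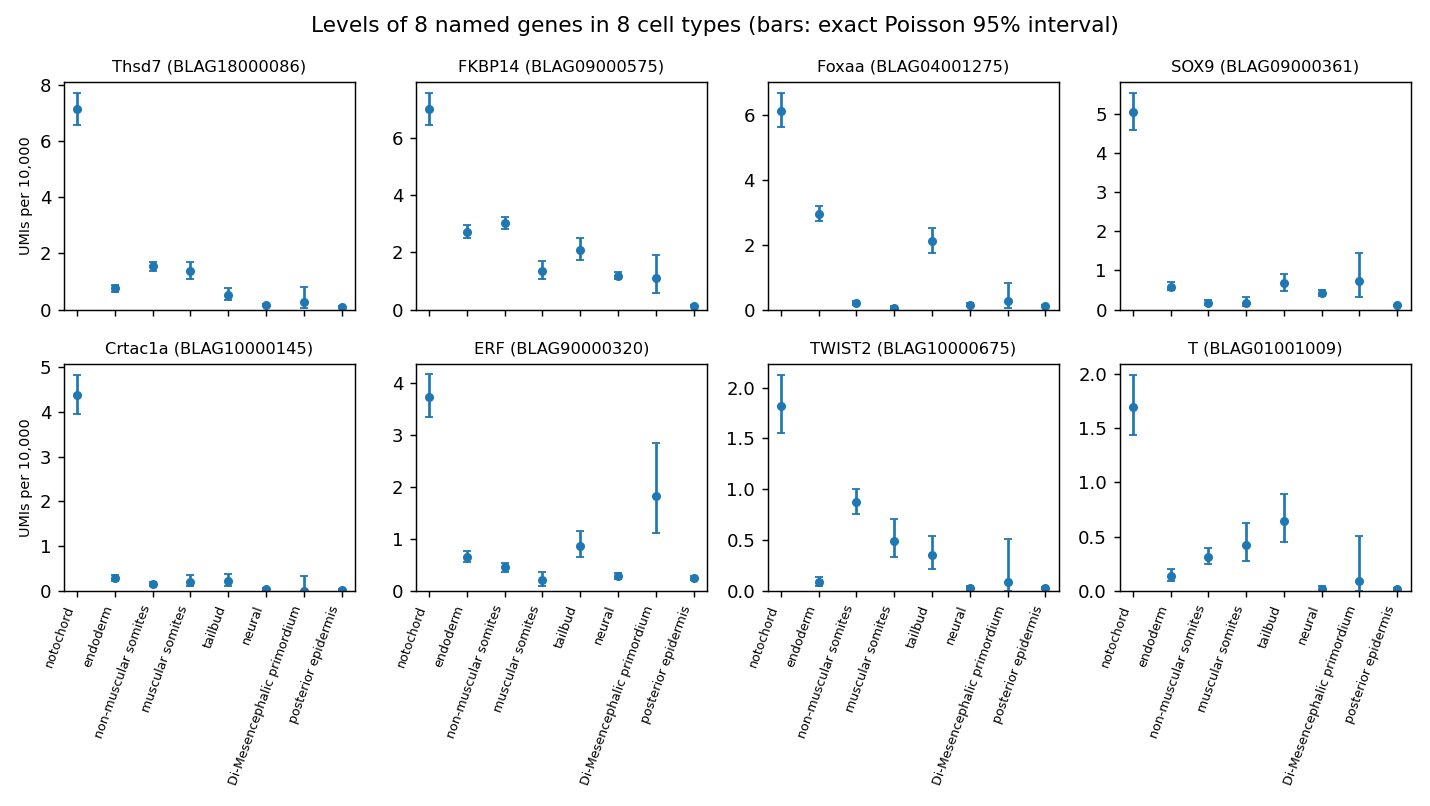
Levels of 8 named genes (UMIs per 10,000, linear axes from 0) in the notochord and 7 other cell types, with exact Poisson 95% intervals. The notochord point of *Crtac1a* (4.37) and of *SOX9* (5.04) stands far above the others, while *Foxaa* shows raised endoderm (2.95) and tailbud (2.12) points.

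Of the genes with an ID only, BLAG12101319 had both the highest level and the largest ratio. It was at 56.5 (54.9 to 58.1) in the notochord, against 2.55 (2.20 to 2.95) in epidermal/neural 1, 2.54 in putative neuro-endo, 1.77 in muscular somites and 1.68 in non-muscular somites, a ratio of 22.1 (19.1 to 25.7). BLAG01102846 was second by level and the reverse in breadth, at 41.5 (40.1 to 42.8) in the notochord against 15.3 (14.8 to 15.8) in the endoderm, 14.8 in the endostyle, 14.8 in the Di-Mesencephalic primordium and 11.7 in neural cells. Together these genes made up the difference between a summed level of 401 for all 101 genes and 303 without them. The next levels were 16.5 for BLAG09000560, 12.2 for BLAG12000467, 12.0 for BLAG12000769 and 10.1 for BLAG02000353, with ratios of 3.77, 3.12, 2.40 and 3.20. The remaining ones among the 10 highest, BLAG15000401, BLAG10000594, BLAG06000331 and BLAG12000458, lay between 8.07 and 9.61.

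Large ratios mostly came from genes of low level. After BLAG12101319, the largest were 21.1 for BLAG04000185 (5.62 to 178), 20.4 for BLAG13000988 (3.51 to 821), 19.8 for BLAG11000199 (9.91 to 46.5) and 17.9 for BLAG03000954 (4.72 to 151). Their notochord levels were 0.740, 0.615, 2.78 and 0.626, and their next types rested on 2, 1, 8 and 2 UMIs. *Crtac1a* came next at 15.4, and BLAG13000017, BLAG05001315, BLAG08001395 and BLAG18000058 followed with ratios of 14.8, 14.6, 14.4 and 14.0. The lower bound of the ratio was 19.1 for BLAG12101319, 11.8 for *Crtac1a* and 9.91 for BLAG11000199, and below 8 for the other 98 genes.

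**Figure D3:**
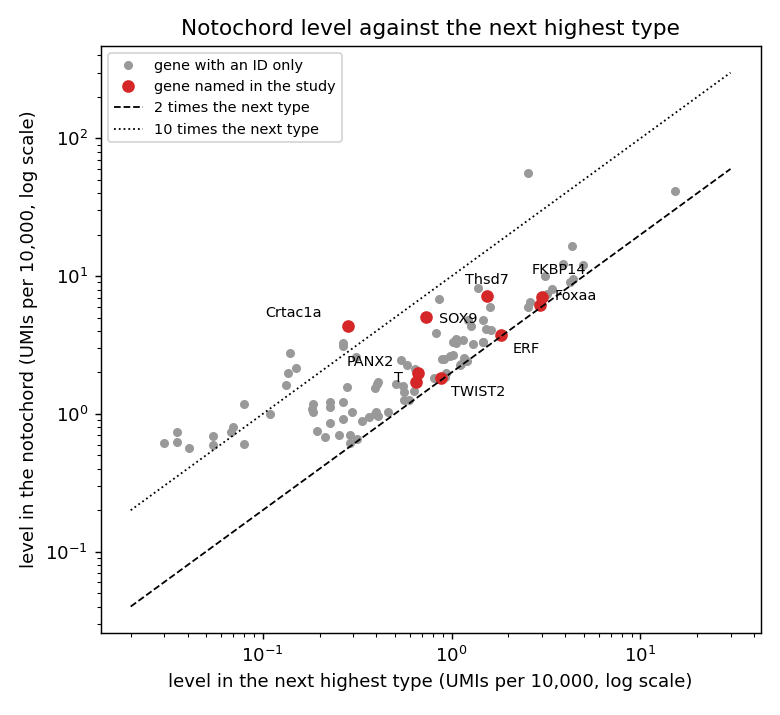
Level in the notochord (vertical) against the level in the next highest type (horizontal) for the 101 genes, both in UMIs per 10,000 on log axes, with named genes in red. All points lie above the dashed line at 2 times by the rule, 17 lie above the dotted line at 10 times, and most of those are at the low end of both axes, while BLAG12101319 (56.5) is the topmost point.

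Close to the threshold, the members just inside were BLAG08101489 (2.01), BLAG04001341 (2.01), BLAG10000148 (2.03), *ERF* (2.03) and BLAG11001049 (2.04). Those just outside were BLAG12000201 (1.99), BLAG04000426 (1.98), BLAG03000049 (1.98), *Six4/5* (1.96) and BLAG04001855 (1.95). The intervals of these ratios all held 2.

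The next highest type was the endoderm for 23 genes, the tailbud for 18, non-muscular somites for 13, putative neuro-endo for 8 and muscular somites for 7, with the other 32 spread over 10 types. This split was not made over all 2803 genes, so it is not read as a result about the members. The putative neuro-endo pool held only 74872 UMIs, so a few UMIs can make it the next type. The posterior epidermis, with the most cells, was next for BLAG16000410 alone and the anterior epidermis for BLAG11101279 alone. The summed level of the 101 genes was 401 (397 to 405) in the notochord, against 84.4 (83.2 to 85.6) in the endoderm, 72.8 (71.8 to 73.9) in non-muscular somites, 67.8 (65.7 to 69.97) in the tailbud, 62.3 (60.2 to 64.4) in the endostyle and 57.5 (55.8 to 59.3) in epidermal/neural 1. The 2 orders differed, since putative neuro-endo cells had a summed level of 42.9 and the endostyle was next for 2 genes only. Neural cells, the Di-Mesencephalic primordium and muscular somites lay at 48.1, 47.4 and 49.7 with overlapping intervals. The lowest 4 types were epidermal/neural 2, anterior epidermis, neural-like 2 and posterior epidermis, at 19.7 to 23.3.

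The level of a member in the posterior epidermis was a median of 2.75% of its notochord level, from 0.226% to 48.4%. RNA freed from broken cells can give UMIs in cells that do not express a gene. Its part in these low levels was not tested.

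By single metacells, the summed level was 471 (465 to 477) in metacell 16, 344 (334 to 354) in 18, 286 (278 to 295) in 19 and 169 (158 to 180) in 17. All 4 were above each of the 172 other metacells, whose median was 22.6. The highest of those were endoderm metacell 1 at 130 (126 to 134), tailbud metacell 32 at 113 (108 to 118), non-muscular somite metacell 26 at 89.2, endoderm metacell 4 at 88.997 and non-muscular somite metacell 27 at 85.8. Neural metacell 55 was at 79.8, the highest neural one. In metacell 1, BLAG01102846 was at 30.8, *SOX9* at 2.01 and *Thsd7* at 1.96, but *Foxaa* BLAG04001275 was at 0.993 and *Crtac1a* at 0.369. In metacell 32, *Foxaa* BLAG04001275 was at 5.64, *SOX9* at 1.61, *FKBP14* at 3.39 and *T* at 0.748, so the endoderm metacell and the tailbud metacell closest to the notochord differed most clearly in *Foxaa* among these.

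**Figure D4:**
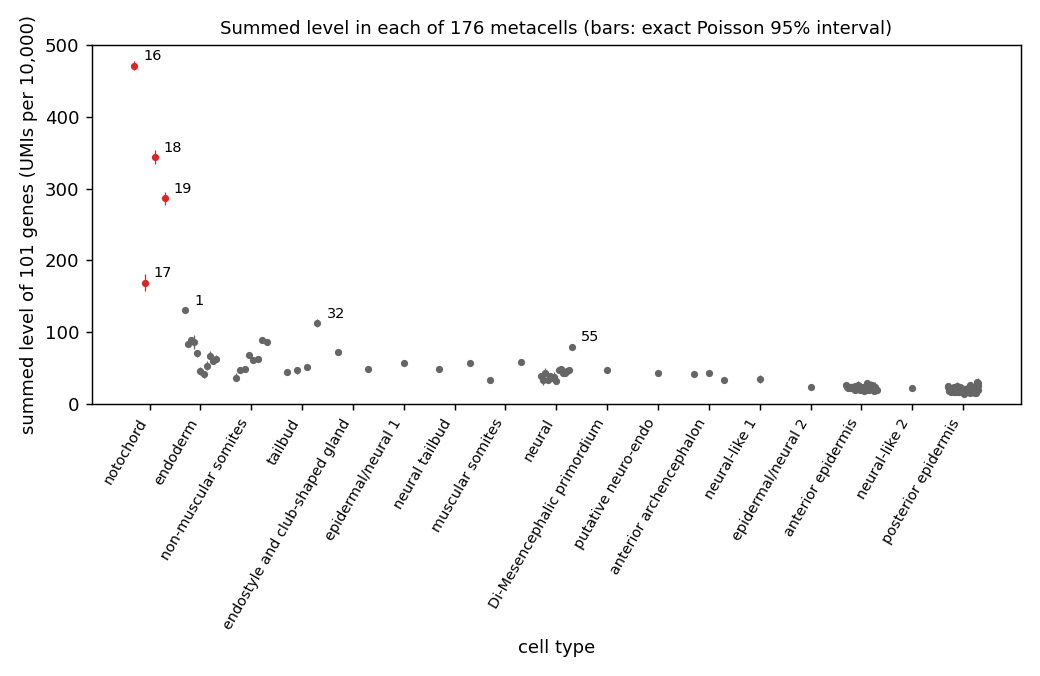
Summed level of the 101 genes (UMIs per 10,000) in each of 176 metacells, grouped by cell type, with exact Poisson 95% intervals and some metacells numbered. The 4 notochord metacells (red) lie between 169 and 471, above metacell 1 at 130 and metacell 32 at 113.

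Among cells with at least 1000 UMIs, the summed level had a median of 369 in 272 notochord cells, with 10% of them below 144, and a median of 25.3 in 10497 other cells, with 1% of them above 134. Of the other cells, 3 reached the median of the notochord cells of any depth (329), namely 2 of endoderm metacell 1 and 1 of epidermal/neural 1. With each cell thinned to 500 UMIs, which left out 32 notochord cells, a notochord cell held a median of 11 different members (quartiles 7 and 16), against 3 in endoderm and non-muscular somite cells and 1 in posterior epidermal cells. Without thinning the medians were 23 in the notochord, 8 in the endoderm and 2 in the posterior epidermis. Over the 38 of 40 plates with at least 5 notochord cells the summed level ran from 248 to 592 with a median of 358.

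A UMI of BLAG12101319 was seen in 83.6% of notochord cells (342 of 409, exact Clopper-Pearson interval 79.7% to 87.1%), against 2.96% of posterior epidermal cells, which had a median of 1246 UMIs. Thinned to 500 UMIs, these shares were 73.5% and 1.43%. For *Foxaa* BLAG04001275 they were 45.2% and 1.59% unthinned, and 23.9% and 0.634% thinned. For *Crtac1a* they were 34.7% and 0.489% unthinned, and 14.3% and 0.267% thinned. For *T* they were 20.05% and 0.290% unthinned, and 7.16% and 0.133% thinned. The posterior epidermis was the background type. The rule required a lower level there, so the order of these shares is a description.

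Within the notochord, metacell 16 carried most of the signal. It held 32.5% of the cells, 60.6% of the UMIs and 71.2% of the members' UMIs, with a median of 3792 UMIs per cell, against 576 in metacell 17, 1390 in 18 and 1341 in 19. The metacells were grouped by the authors from the same counts, so differences between them are again a description. Because metacell 16 holds most of the UMIs that chose the genes, the choice itself favoured genes high in it, and its counts are no sign of a particular pattern. Of the 101 genes, 67 were highest in metacell 16, 21 in 18, 10 in 19 and 3 in 17. Over all 2803 genes with at least 50 UMIs, 37.6% were highest in metacell 16, 25.9% in 18, 14.6% in 19 and 21.9% in 17. A level over 2 times that of the other 3 pooled was found for 35 members in metacell 16 (15.7% of all 2803 genes) and 2 in metacell 18 (5.35%), and for 0 in metacells 17 (8.6%) and 19 (2.1%). In metacell 17, 81 members had their lowest level (41.3% of all 2803 genes) and 15 had 0 UMIs (5.14%), and the epidermal markers were highest in it. The part of depth and of epidermal RNA in the low levels of metacell 17 was not tested.

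Taken one metacell at a time, 101 members exceeded the highest other cell type in metacell 16 (20.5% of all 2803 genes), 93 in 18 (18.3%), 92 in 19 (13.9%) and 56 in 17 (14.6%). Over 2 times the highest other type were 95 members in metacell 16 (4.46%), 70 in 18 (3.46%), 62 in 19 (2.68%) and 24 in 17 (1.57%). In all 4 metacells at once, 54 members exceeded the highest other type (3.5%) and 16 did so over 2 times (0.606%). The rule used these same cells, so nothing is read from these counts against their backgrounds. Single metacells of other types came closer than the pooled types, since a pooled type cannot exceed its highest metacell. For 17 members another metacell was above the pooled notochord level. With only metacells of at least 50000 UMIs counted this held for 14 members, and for 61 such a metacell was above 0.5 of that level. The same counts were not made over all 2803 genes, so nothing is read from them about the members. *Foxaa* BLAG04001275 was at 5.07 in metacell 16 and 3.37 in 17, on 270 and 17 UMIs, against 5.51 in endoderm metacell 4. *TWIST2* was at 1.56 in metacell 16, on 83 UMIs, against 1.76 in non-muscular somite metacell 27. The gaps to metacell 16 are small for such counts and are not read as differences. With metacell 16 left out, 34 of the 101 still met the rule. Of the 67 that did not, 49 had fewer than 50 UMIs left and 18 had a ratio of 2 or less, but 94 of the 101 were still highest in the notochord.

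Among the notochord metacells, some members were nearly limited to metacell 16. BLAG18000713 was at 1.65 in metacell 16, 0 in 17, 0.0694 in 18 and 0.132 in 19, and BLAG04000527 at 1.93, 0.198, 0 and 0.198. BLAG12000258 was at 4.06, 0.198, 0.347 and 0.727 in the same order, a ratio of metacell 16 to the other 3 of 8.25 (5.04 to 14.4). The zeros are counts of 0, each of which allows up to 3 UMIs. BLAG13000843, singled out after its values were seen, was at 11.1, 0.397, 1.87 and 2.11.

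The largest ratios in the other metacells were smaller. In metacell 18 BLAG18000477 was at 2.14 times the other 3 and BLAG07000768 at 2.08 times. In metacell 19 BLAG14000547 was at 1.77 times, *T* at 1.64 and BLAG19000599 at 1.46, the last with an interval that held 1 (0.852 to 2.41). In metacell 17 BLAG01102849, BLAG16000387 and BLAG13000988 came first at 1.83, 1.33 and 1.31, with intervals that held 1.

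Metacells 18 and 19 each had 97 cells and similar totals of 144184 and 151393 UMIs, so depth differs least between them. The level in metacell 18 was over 2 times that in 19, with an interval of the ratio above 1, for 4 members (7.35% of all 2803 genes), and the reverse held for 7 members (6.67%). Read against those backgrounds, neither count is a result about these genes. The genes named next were chosen after their values were seen. BLAG14000547 had 1 UMI in metacell 18 and 63 in 19, at levels of 0.0694 and 4.16, and was at 3.08 in metacell 16 and 1.19 in 17. BLAG08001249 was at 0.416 in metacell 18 and 3.90 in 19 (ratio 0.107, 0.0377 to 0.247), with 8.47 in metacell 16. BLAG09000707 was at 0.0694 and 0.991, and BLAG03001563 at 0.208 and 1.19. *SOX9* belonged to the same side with a ratio of 0.369 (0.239 to 0.558). On the other side BLAG18000058 had 9 UMIs in metacell 18 and 0 in 19, BLAG09000560 was at 16.4 in metacell 18 and 8.52 in 19, and BLAG12101319 at 52.1 and 36.1.

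**Figure D5:**
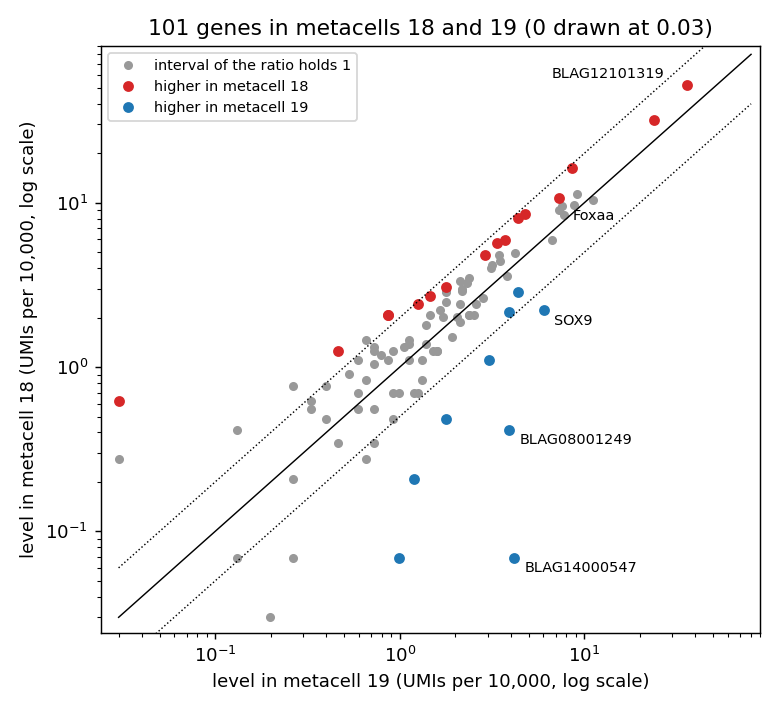
Level in metacell 18 (vertical) against metacell 19 (horizontal) for the 101 genes, UMIs per 10,000 on log axes with 0 drawn at 0.03. The 16 red points lie above the line of equality (13.4% of all 2803 genes) and the 9 blue points below it (8.95%) by more than counting error, with BLAG14000547 (0.0694 in metacell 18 and 4.16 in 19) farthest below.

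Genes known from anterior and posterior tissues, a list added after the levels were seen, also differed between these metacells. The summed level of *Fgfrl*, *Fzd5/8*, *Sfrp1/2/5* and *Gsc*, the anterior list, was 6.10 (4.90 to 7.52) in metacell 18 and 9.71 (8.20 to 11.4) in 19, with *Gsc* at 3.75 and 6.21. *Gsc* held most of these UMIs, 54 of 88 in metacell 18 and 94 of 147 in 19. The paper names *Gsc* among floor plate markers and does not list it with its anterior markers. *Fgfrl*, *Fzd5/8* and *Sfrp1/2/5* had 8, 3 and 23 UMIs in metacell 18 and 13, 7 and 33 in 19. The anterior difference thus depends on the choice of genes. *Six4/5*, which the paper names beside such anterior markers, was not on the list. It lay the other way, at 4.23 in metacell 18 and 3.04 in 19, on 61 and 46 UMIs. The summed level of *Cdx*, *Hox3*, *Wnt1*, *Nanos* and *Vasa*, the posterior list, was 5.34 (4.21 to 6.67) in metacell 18 and 3.17 (2.34 to 4.20) in 19. *Hox3* was at 2.57 and 1.12 and *Nanos* at 1.53 and 0.396, whereas *Cdx* (0.208 and 0.727) and *Vasa* (0.208 and 0.594) lay the other way on 3 to 11 UMIs. Metacell 16 was between them on both lists, at 6.14 and 4.28. The part of position in the differences between metacells 18 and 19 was not tested.

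The list of axial transcription factors put the members in context. It holds 13 genes, was drawn largely from genes the study itself displays for these cells and so is not independent of them. Of its 12 genes with at least 50 UMIs in the notochord, 12 were over 2 times higher there than in all other cells pooled (25.9% of all 2803 genes), with a median of 8.38 times against 1.41 over all 2803 genes. Only 5 were members, namely *Foxaa* BLAG04001275, *T*, *SOX9*, *TWIST2* and *ERF*, and the rule fixed their part of that count and median. *CREB3L1* was at 8.41 in the notochord against 4.95 in the Di-Mesencephalic primordium, *Zeb* at 5.02 against 5.40 in muscular somites and *ID2* at 19.8 against 21.5 in the endostyle. *Noto*, named for the notochord in vertebrates, was at 0.0569 in the notochord and 2.85 in the tailbud.

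The ER machinery of protein secretion was also raised over the rest of the atlas. Its summed level was 235 (231 to 238) in the notochord, against 172 (170 to 173) in non-muscular somites and 142 in the endoderm. This list of 17 genes was taken from the study's tables and is not independent of these cells either. Of the 17 genes, 16 were over 2 times higher in the notochord than in all other cells pooled (25.9% of all 2803 genes). Their median was 2.54 times, against 1.41 over all 2803 genes. That pool includes the anterior and posterior epidermis, where the summed level was 36.5 and 42.6. Of the 17, 14 were highest in the notochord of all types (15.7% of all 2803 genes). Only *FKBP14* met the rule (3.67% of all 2803 genes), which fixed its part in these counts. Some of the 14 were near ties. *CALR*, the chaperone calreticulin, was at 20.6 in the notochord and 20.5 in the endoderm, within counting error. *TMEM258* was at 13.5 (12.8 to 14.3) in the notochord and 13.2 in the endostyle. *HSP90B1* was at 4.63 (4.19 to 5.11) in the notochord and 4.50 in the endoderm. *PPIB*, a prolyl isomerase of the ER, was at 47.4 in the notochord and 29.9 in non-muscular somites, and *FKBP9* at 48.5 and 37.1. *SSR4*, a subunit of the translocon-associated complex, was at 14.5 in the notochord and 12.0 in the endostyle.

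Most of the matrix and signalling genes listed were higher in other types. So were most of all 2803 genes, of which 15.7% were highest in the notochord, so this is not read as a result about these lists. Of 7 matrix and surface genes, 5 had at least 50 UMIs in the notochord, and *Thsd7* BLAG18000086 was the only member on this list. *Crtac1a*, a member with a cartilage matrix protein as its vertebrate relative, stood on the list of notochord markers and not on this one. Both IDs of *COL4A6*, a basement membrane collagen, were lower in the notochord (4.54 and 2.42) than in non-muscular somites (87.1 and 46.7). *DAG1*, the matrix receptor dystroglycan, was at 15.9 in the notochord and 20.4 in non-muscular somites. Of 10 secreted signals and receptors, only 4 had at least 50 UMIs in the notochord, and 0 were members (3.67% of all 2803 genes met the rule). *Chordin*, a BMP antagonist, was the only one highest in the notochord, at 3.16 against 2.35 in neural cells.

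Some members carry adjacent ID numbers. In 7 pairs the numbers differed by at most 3, and in 3 of those by 1. BLAG13000017 and BLAG13000018 were at 1.18 and 3.84 in the notochord, and were seen in 72 and 135 notochord cells, 44 of them shared. BLAG05000686 and BLAG05000687 were at 1.02 and 2.52. If such IDs are near-identical copies, reads can be split between them in counting, so their separate levels are uncertain. Positions and sequences were not used here.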

How the data were processed

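Single cells of pooled embryos were sorted into 384-well plates by the authors, who excluded dead cells and doublets by gating; no doublet caller was run here. Reads were mapped by the authors with STAR, and the deposited UMI counts (raw counts per gene and cell) and cell annotation (cell type and metacell from the Metacell package) were used as deposited, with 14586 cells in the table beside 15384 libraries stated in the labels. A deposited table of the authors' fold changes of each metacell over the median metacell was not used. Counts were summed per cell type or metacell and scaled to 10,000 UMIs of all genes. Intervals were exact Poisson for levels, exact conditional binomial for ratios and Clopper-Pearson for shares. Totals per cell type were 54090 to 9568628 UMIs. The bulk ATAC-seq samples were not used here. The rule was tested on simulated counts for the comparison of the notochord with the highest other type (200 genes raised 4 times among 3119 tested), in which 94% were recovered and 0 unchanged genes were called. The unchanged genes were simulated at the same level in all types, unlike real genes, and the members' own ratios had a median of 3.21. Neither figure therefore measures how the rule performs on these data. Python 3.11.15 was used with numpy, scipy and pandas.

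The members and lists were chosen with earlier results of these data known, and the position markers were added after the levels were seen. Genes named were the 10 highest by level, the 10 largest by ratio, those with a name and those beside the threshold. The 3 leading members per metacell, list genes and some members with adjacent IDs were also named, with exceptions marked. The 2 members with most UMIs per next type were also chosen beforehand, but not all of them are named here.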

Additional observations from a re-analysis of the deposited data

How the results depend on the processing

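The number of genes specific to the notochord was 101. It was 156 at a threshold of 1.5 times, 54 at 3 times, 60 when the lower bound of the ratio had to exceed 2, and 37 without metacell 16, of which 34 were among the 101. It stayed within 73 to 121 under the other 9 alternatives, namely a minimum of 20 or 100 UMIs (121 and 73), the mean over cells (88), other types with at least 200000 UMIs only (108), without cells over 4 times the median depth (94), without cells under 500 UMIs (100) and without metacell 17, 18 or 19 (105, 98 and 102). The summed level of 401 was 293 without metacell 16, 415 without 17, 412 without 18, 425 without 19 and 341 as a mean over cells. The number of members over 2 times higher in a single notochord metacell was 37, 14 when the lower bound had to exceed 2 and 50 as a mean over cells. As a mean over cells, 20 of 27 named levels left their counting interval, and thinning moved all 27 shares, since thinned cells hold fewer UMIs. No paired analysis was possible because cells could not be placed in either sample and no test was made. Depth limits the low genes: 28 members had fewer than 100 UMIs in the notochord.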
